A study of Mus musculus with 8 samples.

Results

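Wnt and Tcf pathway genes were followed on arrays of mouse embryonic stem cells through a block of transcription. The 10 genes were Ctnnb1, Axin1, Axin2, Apc, Gsk3b, Tcf7, Tcf7l1, Tcf7l2, Lef1 and Sp5, and every non-control probe assigned to them by its accession was taken, whatever its values. This gave 18 probes of the 55681 on the array, and 10 of the 20972 genes with a named probe. Of the 18 probes, 16 exceeded background clearly on all arrays of 1 or more groups and were tested, with at least 1 for each gene. The probes not tested were a second Axin2 probe and a second Apc probe.

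The study hybridised 8 single-colour Agilent arrays, 1 RNA each, and its title concerns mRNA decay controlled by Erk, a kinase downstream of FGF receptors. All cultures were grown in stem cell medium with LIF, which sustains self-renewal, and with the FGF receptor inhibitor PD173074 at 250 nM, so the untreated cells carry that inhibitor too. The 4OHT group (3 arrays) had 5 µM actinomycin D, which stops transcription, and 30 min later 250 nM 4-hydroxytamoxifen for 4 h. The vehicle group (2 arrays) had the same actinomycin D and ethanol for the same 4 h. The untreated group (3 arrays) had neither, by its treatment label, although its titles bear an abbreviated actinomycin D. Those titles also give 0 h, and no group without actinomycin D was kept for the 4 h. In comparisons with untreated, actinomycin D, ethanol or 4OHT, and time in culture therefore cannot be told apart. The labels state neither the strain or genotype of the cells nor what 4OHT acts on in them, and whether the line is a single clone is not given in the sources used here. The design text gives each condition 3 biological replicates, whereas the vehicle group analysed here has 2.

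In the Wnt pathway, beta-catenin, the product of Ctnnb1, is bound by the scaffolds Axin and Apc and phosphorylated by Gsk3, which marks it for destruction. A Wnt ligand bound to a Frizzled receptor and an Lrp co-receptor halts this, and beta-catenin then joins Tcf and Lef proteins on DNA. In mouse embryonic stem cells Tcf7l1 is known as a repressor of pluripotency genes, and beta-catenin is known to relieve that repression, while Axin2 and Sp5 are classical targets of the pathway. After actinomycin D no new mRNA is expected, so a later level depends on how much of the earlier mRNA is left.

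The promoter windows of the classical targets are shown because the Tcf and Lef proteins are known to bind sites of the type CTTTGAA or CTTTGAT or CTTTGTA or CTTTGTT. Each window is the 250 bases before the gene's start from RefSeq (build GRCm38.p6, while the array files name mm9), 5′ to 3′ on the gene's strand, with a match on either strand in capitals. Sp5 lies at chr2:70474673-70474922 (plus strand) and Axin2 at chr11:108920099-108920348 (plus strand).
Sp5: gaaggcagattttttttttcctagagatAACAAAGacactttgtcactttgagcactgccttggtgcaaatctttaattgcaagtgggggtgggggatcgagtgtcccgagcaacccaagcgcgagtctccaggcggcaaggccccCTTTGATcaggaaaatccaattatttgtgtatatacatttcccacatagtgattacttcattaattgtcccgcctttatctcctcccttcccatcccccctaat
Axin2: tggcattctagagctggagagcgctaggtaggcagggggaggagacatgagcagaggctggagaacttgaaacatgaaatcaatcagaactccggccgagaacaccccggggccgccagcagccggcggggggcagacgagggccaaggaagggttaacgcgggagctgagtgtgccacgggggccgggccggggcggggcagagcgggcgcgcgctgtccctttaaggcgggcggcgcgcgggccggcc
The Sp5 window held 2 matches, CTTTGTT on the minus strand 222 bases and CTTTGAT on the plus strand 104 bases before the start, and the Axin2 window held none. Windows were found for 8 of the 10 genes (14 windows, since a gene can have several starts), and 3 of these windows, of Sp5, Tcf7l2 and Lef1, held a match. Of 32851 windows in the table, 14.8% held at least 1, with 4.46% for CTTTGAA, 3.21% for CTTTGAT, 3.2% for CTTTGTA and 5.03% for CTTTGTT. A match is a description of the letters, and no binding was measured.

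Levels are given as log2 signal after subtraction of the 75th percentile of the same array. That percentile was itself lower in all cultures given actinomycin D, at 209, 180 and 182 with 4OHT and 166 and 205 with vehicle, against 333, 457 and 405 untreated. Relative to the array's spike-in control probes it averaged -5.08 ± 0.25 log2 with 4OHT (SD, n = 3), -4.77 ± 0.09 with vehicle (SD, n = 2) and -3.49 ± 0.09 untreated (SD, n = 3). A gene that is higher on the 75th percentile scale may therefore have lost less signal than most genes rather than gained any, and the difference on the spike-in scale is given beside such genes. The same mass of total RNA was labelled for each array, and in bulk RNA fewer cells of a type and less RNA per cell cannot be told apart. All 3 4OHT arrays lie on a slide of their own, so slide and 4OHT cannot be told apart, and within the other slide untreated and vehicle arrays lie in different rows. The 8 markers of pluripotent stem cells, Pou5f1, Sox2 and Nanog among them, were well above background on every array. Markers of mesendoderm, well above background throughout a group for 1 of 5 with 4OHT, 1 of 5 with vehicle and 3 of 5 untreated, and of primitive endoderm (2, 2 and 5 of 6 in the same order) were fewer after actinomycin D. The share of all spots well above background was lower too. It was 57.4, 54.7 and 53% with 4OHT, 60 and 55.6% with vehicle and 67.3, 75.7 and 61% untreated. The summed level of the mesendoderm markers, relative to the 75th percentile, was 0.274 to 0.283 with 4OHT, 0.253 to 0.339 with vehicle and 0.602 to 0.811 untreated, and that of the primitive endoderm markers 0.281 to 0.409, 0.336 to 0.391 and 0.652 to 0.823, while that of the pluripotency markers was 1050 to 1190, 1220 to 1240 and 777 to 910. Single pluripotency markers differed in direction, with 4 called higher and 2 lower of 8 in vehicle against untreated and 4 and 4 in 4OHT against untreated. Over all symbols 41.5% were called higher and 19.2% lower in vehicle against untreated, and 43.8% and 21.5% in 4OHT against untreated. All marker counts in this paragraph stand against these shares and are too small to be set apart from them. Sox2 was 0.42, 0.22 and 0.32 with 4OHT, 1 and 0.68 with vehicle and 4.49, 4.32 and 4.33 untreated. Feeder fibroblast markers numbered 3 of 6 in each group, with summed levels, in the same order, of 3.81 to 4.25, 3.15 to 3.54 and 2.39 to 3.56. Trophoblast markers numbered 2, 3 and 3 of 6, with sums of 2.18 to 3.09, 1.79 to 2.86 and 3.34 to 5.81, and neuroectoderm markers 3, 3 and 4 of 4, with sums of 2.75 to 3.44, 3.01 to 3.25 and 2.15 to 2.29. In both of these lists the summed levels of the actinomycin D groups did not overlap with untreated, below it for trophoblast and above it for neuroectoderm. Such linear sums weigh the brightest marker most, here Tfap2c and Nes. Of 4 trophoblast markers tested, 0 were called higher and 1 lower in each comparison with untreated. Of 4 neuroectoderm markers, 2 were called higher and 0 lower in vehicle against untreated, and 2 and 1 in 4OHT against untreated. The part of all these markers in the results was not tested.

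Vehicle against untreated shows which pathway mRNAs were depleted, relative to the rest, at the end of the 4 h with vehicle, which began 30 min after actinomycin D was added. The scaffold Axin1 fell 3.04-fold and the target Sp5 4.14-fold. The target Axin2 fell at least 4.28-fold, by a bound that rests on the lowest signal well above background. Ctnnb1, Apc and Tcf7l1 rose 1.66-, 1.49- and 1.62-fold on the 75th percentile scale. Of the 16 probes tested, 5 were called higher and 4 lower at an adjusted p under 0.05 (limma, Benjamini-Hochberg over 32991 probes), and 7 were not called. Over all probes tested, 42.1% were called higher and 16.0% lower. By the brightest probe of each gene, 4 genes were higher, 3 lower and 3 not called, against 41.5% of all symbols higher and 19.2% lower. The median difference of the 16 probes was -0.05 and that of all probes 0.40. The Axin2 probe, among those called lower, passed the filter through the untreated group alone. In a fit limited to probes well above background on all 8 arrays, 5 of 14 member probes were higher and 3 lower. Arrays of the groups did not overlap for 12 of the 16. The same count was not made over all probes, so it is not read as a trait of these genes. The p-values measure the spread between these arrays.

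Ctnnb1 (probe A_52_P424585), which encodes beta-catenin, read 5.580 and 5.763 with vehicle and 5.108, 4.811 and 4.910 untreated. Both vehicle arrays lie above all untreated arrays, and the difference was 0.73 ± 0.14 log2 (SE, limma adjusted p = 0.0036). On the spike-in scale it was -0.55, with quantile normalization 0.12 (adjusted p = 0.42) and with median scaling 0.77 (adjusted p = 0.055). Before scaling, the signal was 7960 and 11100 with vehicle and 11500, 12800 and 12200 untreated. The rise is thus one relative to the other signals of the array, and the signal itself was not higher.

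Axin1 (A_55_P2143209), the constitutive scaffold of the destruction complex, read 1.041 and 0.615 with vehicle and 2.481, 2.484 and 2.326 untreated. The groups are far apart, and the difference was -1.60 ± 0.14 log2 (limma adjusted p = 0.00023), or -2.88 on the spike-in scale. Its homologue Axin2 (A_55_P2000783), a negative feedback target of the pathway, read -5.096 and -6.735 with vehicle and -2.579, -2.533 and -2.783 untreated. It was well above background on all 3 untreated arrays and on neither vehicle array, which makes the difference a bound. Set against the lowest signal well above background on each vehicle array, it was at least 4.28-fold lower. The probe passed the filter through the untreated group alone. Its call belongs to the fitted difference of -3.28, which uses the readings below background (limma adjusted p = 0.0018). That call was lost with normexp background correction, which gave -0.06 (adjusted p = 0.63). The second Axin2 probe (A_66_P134405) was well above background on 2 untreated arrays and on neither vehicle array, with means of -6.27 and -4.67, a bound of at least 1.04-fold lower with no test.

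Apc (A_52_P633752), the other scaffold, read -1.138 and -1.196 with vehicle and -1.821, -1.786 and -1.625 untreated. Vehicle arrays were higher without overlap, by 0.58 ± 0.11 log2 (limma adjusted p = 0.004; spike-in scale -0.70). Median scaling ended the call (0.62, adjusted p = 0.095). The second Apc probe (A_55_P2010891) was well above background on no vehicle array and 2 untreated arrays, with overlapping values.

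Gsk3b, the kinase of the complex, had 3 tested probes that disagree. The brightest (A_55_P1981415) read 2.236 and 2.324 with vehicle and 2.565, 2.381 and 2.625 untreated, a difference of -0.24 with a 95% interval of -0.50 to 0.01 that was not called (limma adjusted p = 0.088). The probe A_51_P514412 differed by 0.07 (-0.21 to 0.35), and only A_66_P104190 was called, lower by 0.71 ± 0.25 log2 (limma adjusted p = 0.048). That last call was lost on leaving out any of 6 of the 8 arrays, with adjusted p up to 0.2 without vehicle replicate 1.

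Among the Tcf and Lef factors, Tcf7l1 (A_52_P387724), the factor known as a repressor in these cells, read 3.286 and 2.977 with vehicle and 2.564, 2.440 and 2.307 untreated. It rose without overlap by 0.69 ± 0.13 log2 (limma adjusted p = 0.0032; spike-in scale -0.58). Tcf7, known in stem cells mainly as an activator with beta-catenin, read 0.595 and 0.995 with vehicle and 0.432, 0.373 and 0.415 untreated on its brightest probe A_52_P244702. Its differences were 0.39 ± 0.13 (adjusted p = 0.037) there and 0.48 ± 0.14 (adjusted p = 0.024, limma) on A_55_P2109633, or -0.89 and -0.80 on the spike-in scale. Both Tcf7 calls were near the threshold and were lost under other settings, with adjusted p of 0.24 and 0.17 under median scaling. The first was lost on leaving out any array other than vehicle replicate 1, and the difference was 0.19 (adjusted p = 0.21) without vehicle replicate 2.

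Tcf7l2, a further Tcf factor with many transcript forms, had 3 tested probes made against different RefSeq transcripts, and none was called. The brightest (A_55_P2143724) read -0.748 and -0.317 with vehicle and -0.886, -0.878 and -0.928 untreated, a difference of 0.36 (95% interval -0.04 to 0.77). The others differed by -0.42 (-0.93 to 0.09, A_55_P2030160) and -0.67 (-1.37 to 0.03, A_55_P2260094).

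Lef1 varied more within groups than between them. Its brightest probe (A_55_P2076871) read 0.800 and -0.662 with vehicle and 0.137, 0.169 and -1.021 untreated. The difference of 0.31 had an SE of 0.63, against a median SE of 0.17 over all probes, and a 95% interval of -1.19 to 1.81. The second probe (A_51_P420400) read -1.463 and -3.886 with vehicle and -2.473, -1.663 and -3.389 untreated, a difference of -0.17 (-2.08 to 1.75). Vehicle replicate 2 and untreated replicate 3 were the lowest of their groups on both probes.

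Sp5 (A_51_P404193), a zinc finger factor and direct target of beta-catenin whose promoter window with 2 matches is printed above, read -3.478 and -3.079 with vehicle and -1.082, -1.695 and -0.914 untreated. Every vehicle array lay below every untreated array, by 2.05 ± 0.29 log2 (limma adjusted p = 0.0011), or -3.32 on the spike-in scale and -0.62 with normexp (adjusted p = 0.006). Both vehicle arrays were still well above background.

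**Figure D1:**
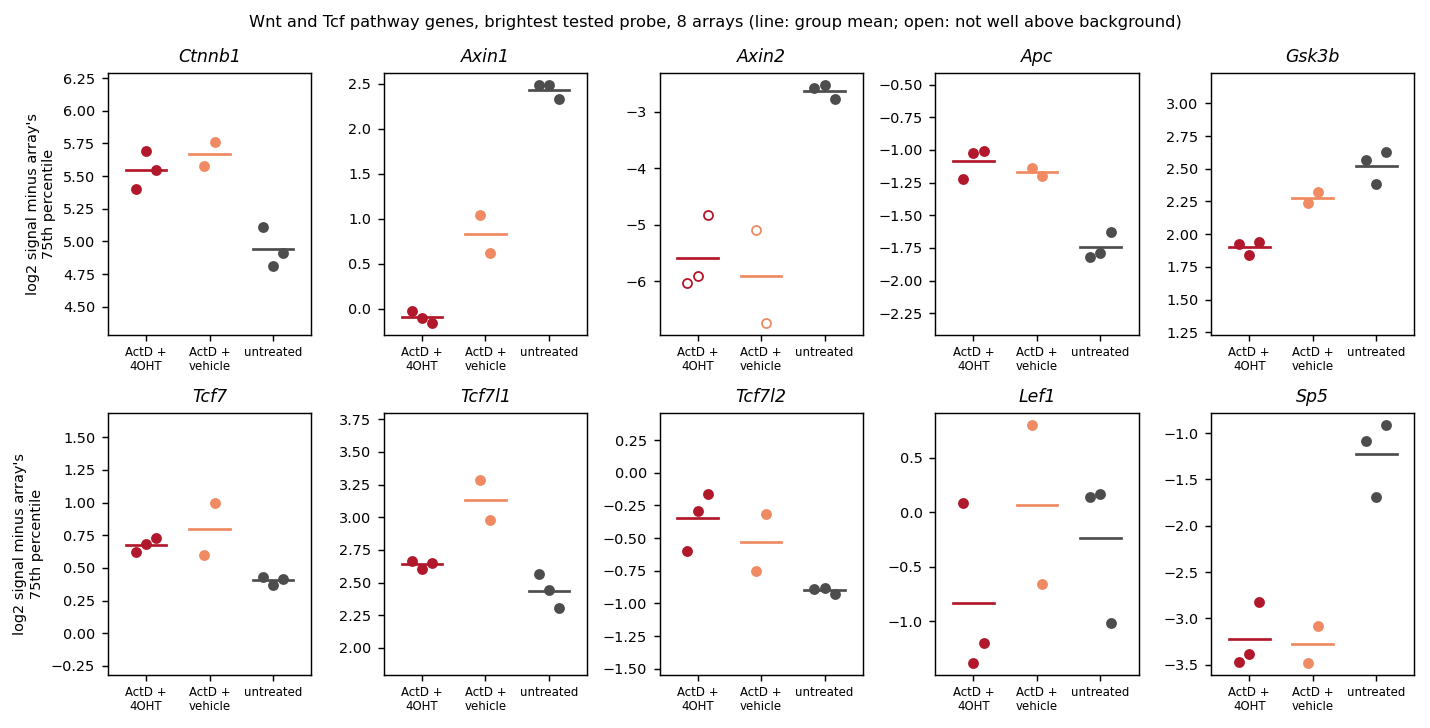
Level of each gene on each of the 8 arrays, in log2 units relative to the 75th percentile of that array, for the brightest tested probe; groups run 4OHT, vehicle, untreated, lines are group means and open points were not well above background. Axin1 is lowest with 4OHT, intermediate with vehicle and highest untreated, Axin2 and Sp5 are low in both actinomycin D groups, and Lef1 scatters within every group.

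4OHT against vehicle compares cells that both had actinomycin D, so it asks which mRNAs differed with 4OHT while transcription was stopped. Axin1 was the only member called: it read -0.031, -0.109 and -0.157 with 4OHT and 1.041 and 0.615 with vehicle. All 4OHT arrays lie below both vehicle arrays, and the difference was -0.93 ± 0.14 log2, 1.9-fold lower (limma adjusted p = 0.023; spike-in scale -1.23). Of the 16 probes tested, 0 were higher, 1 lower and 15 not called, against 0.937% of all probes called higher and 2.51% called lower. By brightest probe 1 of 10 genes was called, against 1.32% of all symbols higher and 3.08% lower. The Axin1 difference stayed negative under every alternative run, from -1.23 to -0.70, but its call was lost under 12 of the 22. The adjusted p was 0.26 with median scaling, 0.098 in a fit of only these groups, and 0.026 to 0.085 on leaving out an array, with the call kept only without untreated replicate 2 or vehicle replicate 2. Without vehicle replicate 1 the difference was -0.71 (adjusted p = 0.085).

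Of the members not called, the largest differences without overlap were those of Tcf7l1 and Gsk3b. Tcf7l1 read 2.664, 2.607 and 2.650 with 4OHT and 3.286 and 2.977 with vehicle, a difference of -0.49 with a 95% interval of -0.79 to -0.19 (limma adjusted p = 0.095). Gsk3b read 1.925, 1.838 and 1.942 with 4OHT and 2.236 and 2.324 with vehicle on its brightest probe, a difference of -0.38 (-0.63 to -0.13, limma adjusted p = 0.11). The other Gsk3b probes differed by -0.21 (-0.48 to 0.07) and -0.33 (-0.93 to 0.27). The 3 probes of this kinase thus all had negative differences, none of them called.

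The remaining members had intervals that include 0. Ctnnb1 read 5.398, 5.691 and 5.549 with 4OHT and differed from vehicle by -0.13 (-0.45 to 0.20). Apc read -1.219, -1.023 and -1.005 with 4OHT and differed by 0.08 (-0.18 to 0.35). Sp5 read -3.467, -3.382 and -2.826 with 4OHT and differed by 0.05 (-0.64 to 0.75). These intervals leave room for changes of the sizes given. Tcf7 differed by -0.12 (-0.43 to 0.19) and -0.24 (-0.58 to 0.10) on its probes, Tcf7l2 by 0.18, 0.20 and -0.23, and Lef1 by -0.90 (-2.40 to 0.60) and -0.08 (-1.99 to 1.84). Axin2 was below background on every array of both groups, so no fold is given. The median difference of the 16 probes was -0.17, against -0.04 for all probes.

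**Figure D2:**
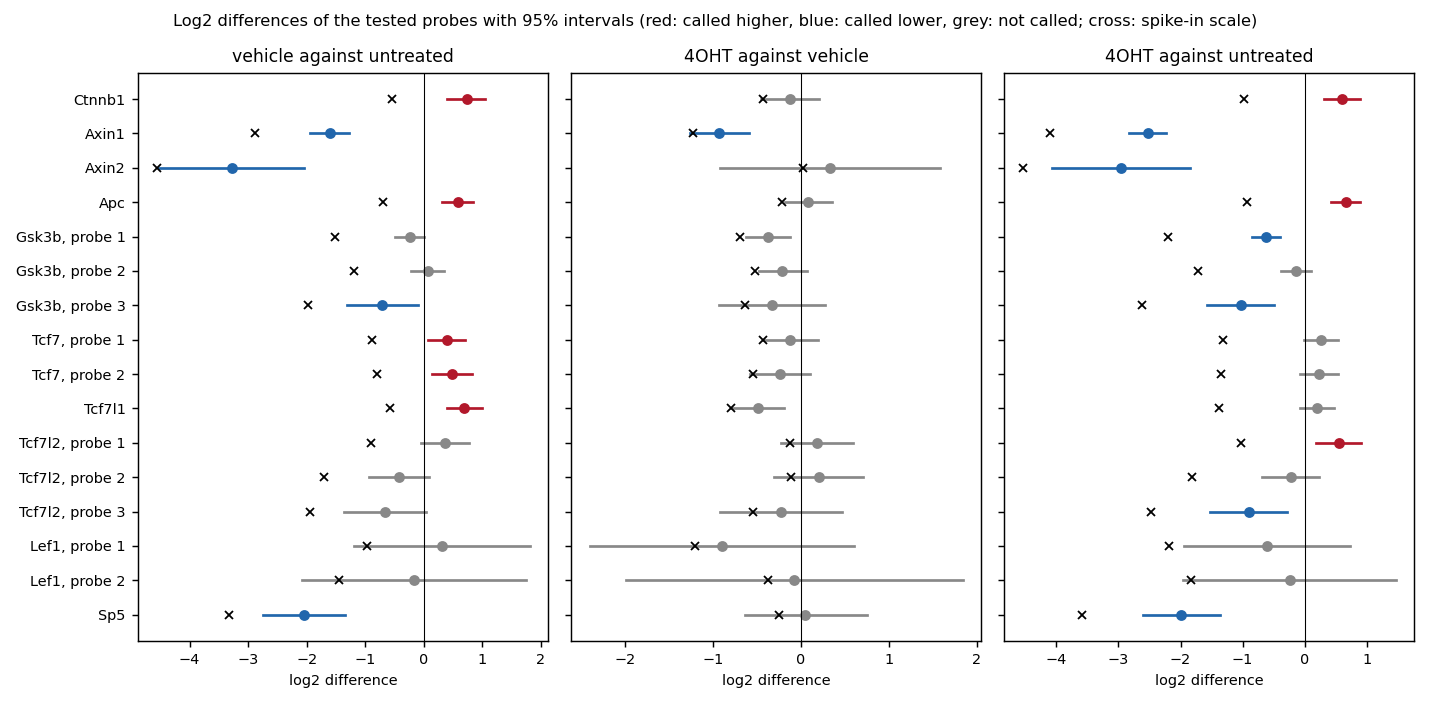
Log2 differences of the 16 tested probes with 95% intervals in each comparison, with the spike-in scale as crosses; probes of a gene run in order of brightness. In 4OHT against vehicle only the Axin1 interval belongs to a called probe, while on the spike-in scale every probe lies below 0 in both comparisons with untreated.

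4OHT against untreated shares its arrays with the comparisons above, so its values are given side by side with theirs rather than as a further test of them. Of the 16 probes, 3 were higher, 6 lower and 7 not called, against 42.3% of all probes higher and 18.7% lower. By brightest probe 3 genes were higher, 4 lower and 3 not called, against 43.8% of symbols higher and 21.5% lower. The median was -0.23, against 0.33 for all probes. In a fit limited to probes well above background on all 8 arrays, 3 of 14 member probes were higher and 4 lower. Axin1 was 5.77-fold lower, by 2.53 ± 0.13 log2 (limma adjusted p = 1.5e-05; spike-in scale -4.11). Axin2, at -6.031, -5.902 and -4.829 with 4OHT, was below background on all 3 of these arrays and at least 3.55-fold lower by the bound. Its fitted difference of -2.96 was called (limma adjusted p = 0.0014), a call lost with normexp (-0.16, adjusted p = 0.18). Sp5 was lower by 1.99 ± 0.26 log2 (limma adjusted p = 0.00059), and differed by -0.70 with normexp.

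Gsk3b was lower by 0.62 ± 0.10 log2 on its brightest probe (limma adjusted p = 0.0012) and by 1.03 ± 0.23 on A_66_P104190 (adjusted p = 0.0064), and differed by -0.14 (-0.38 to 0.11) on A_51_P514412. Median scaling ended the first of these calls (adjusted p = 0.15). Ctnnb1 was higher by 0.60 ± 0.12 log2 (limma adjusted p = 0.0045; spike-in scale -0.98), a call that quantile normalization ended (0.02). Apc was higher by 0.66 ± 0.10 log2 (limma adjusted p = 0.0011; spike-in scale -0.92). Tcf7l1, called in vehicle against untreated, differed here by 0.20 (-0.07 to 0.47), and Tcf7 by 0.27 (-0.01 to 0.54) and 0.24 (-0.07 to 0.54).

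Tcf7l2 divided by probe. The brightest read -0.598, -0.290 and -0.160 with 4OHT, above the untreated arrays by 0.55 ± 0.15 log2 (limma adjusted p = 0.018), while A_55_P2260094 read -3.702, -4.119 and -4.012 with 4OHT and -2.980, -3.432 and -2.723 untreated, lower by 0.90 ± 0.26 (adjusted p = 0.021). That probe was well above background on 1 of the 3 4OHT arrays, and with normexp it was 0.29. The first was -1.03 on the spike-in scale, and both calls were lost without 4OHT replicate 2, without 4OHT replicate 3 and without untreated replicate 3 (adjusted p = 0.053 to 0.069), and the second also without untreated replicate 1 (0.062). Lef1 read 0.084, -1.381 and -1.205 with 4OHT on its brightest probe and differed from untreated by -0.60 (-1.94 to 0.74). On both Lef1 probes 4OHT replicate 1 was the highest of its group.

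**Figure D3:**
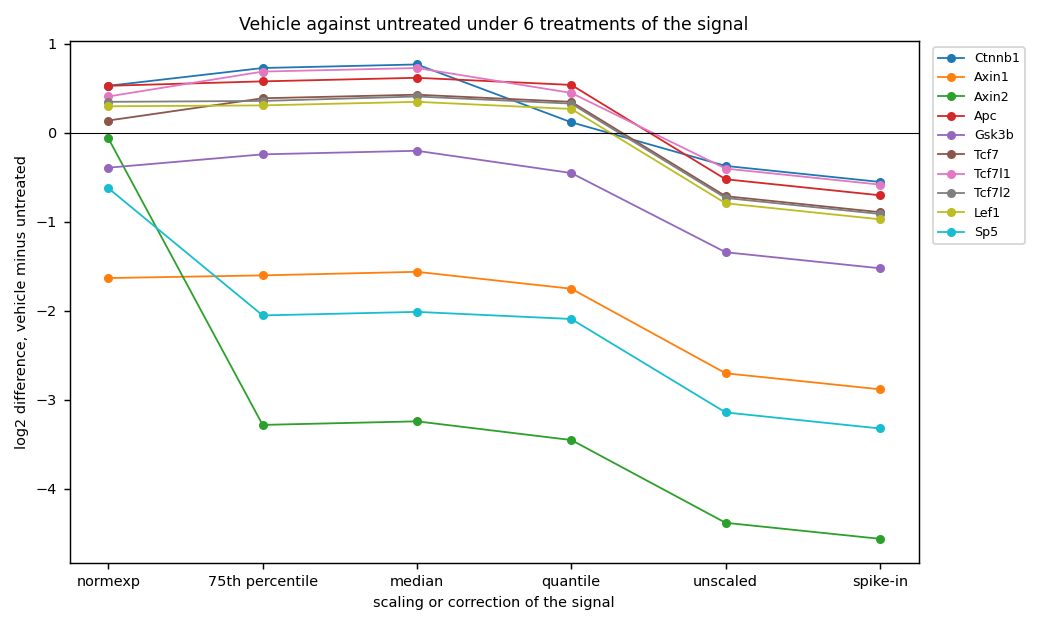
Log2 difference between vehicle and untreated of each gene's brightest probe under 6 treatments of the signal. Ctnnb1, Apc, Tcf7 and Tcf7l1 lie above 0 with the first 4 and below 0 unscaled and on the spike-in scale, Axin1 and Sp5 lie below 0 throughout, and normexp brings Axin2 to -0.06.

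The scaling decides the direction of the members called higher. On the spike-in scale 14 of the 16 probes were called lower in vehicle against untreated and 16 of 16 in 4OHT against untreated, with 0 higher. Called probes over the whole array were 72.5% higher on the 75th percentile scale and 0.154% higher on the spike-in scale for vehicle against untreated, with a median over all probes of -0.87 on the spike-in scale. Against that median, Ctnnb1 (-0.55), Apc (-0.70) and Tcf7l1 (-0.58) had smaller losses, and Axin1 (-2.88) and Sp5 (-3.32) larger ones. Moving to the spike-in scale shifts all probes of an array alike, so the order of the members stayed and the signs did not.

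The genes closest in pattern to each member were found over the 8 arrays as the smallest root mean square difference of centred log2 values. Ctnnb1 was closest to Mthfd1 (0.034 log2) and Add3 (0.041), Axin1 to Atg101 (0.07) and Tent5b (0.091), and Sp5 to Adra2a (0.146) and Gnb5 (0.192). Tcf7l1 was closest to Orai2 (0.057) and Lef1 to Rimkla (0.223). The wider gaps belong to members with more scatter or lower signal, and 8 arrays in 3 groups allow many genes to be close.

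The rest of the pathway was read through 8 lists with 123 genes in all, of which 105 were tested by their brightest probe. In vehicle against untreated 31 of the 105 (29.5%) were higher, 34 (32.4%) lower and 40 not called, with a median of -0.06 against 0.35 for all symbols. Over all symbols 41.5% were called higher and 19.2% lower, and the counts of each list below stand against these shares. Of 17 tested genes for Wnt secretion and reception, 10 were lower and 4 higher, with a median of -1.46. Medians of the lists rest on fitted differences, those of genes below background included. Of the 10 Frizzled receptors, a subgroup separated after its values were seen and given without a test of its own, 9 were lower and none higher, and differences ran from -4.37 to -0.18. Of these, 3 fell to below background on both vehicle arrays, namely Fzd1, Fzd6 and Fzd8. Those 3 passed the filter through the untreated group alone, where they were higher, so their calls carry little weight. Fzd3, at -0.18, was not called.

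Fzd10 read -1.37 and -1.52 with vehicle and 3.28, 2.66 and 2.84 untreated, the lowest difference of the group at -4.37 ± 0.21 log2 (limma adjusted p = 2.6e-05). Fzd7, a receptor known for its high level in stem cells, read -2.38 and -2.34 with vehicle and 1.7, 1.38 and 1.5 untreated, lower by 3.89 ± 0.14 (adjusted p = 9e-06). A second probe of Fzd7 was lower by 1.36 ± 0.46 (limma adjusted p = 0.04). Fzd9 was lower by 3.72 ± 0.22 (adjusted p = 5.8e-05). The co-receptor Lrp5, at 1.96 and 2.07 with vehicle and 1.28, 1.15 and 1.37 untreated, was instead higher by 0.75 ± 0.11 (limma adjusted p = 0.0012; spike-in scale -0.53), and the pseudokinase receptor Ptk7 by 1.11 ± 0.12 (adjusted p = 0.00039; spike-in scale -0.16). Called falls of this list numbered 7 to 10 over the alternatives other than no scaling and spike-in scaling, where they numbered 13 and 15.

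**Figure D4:**
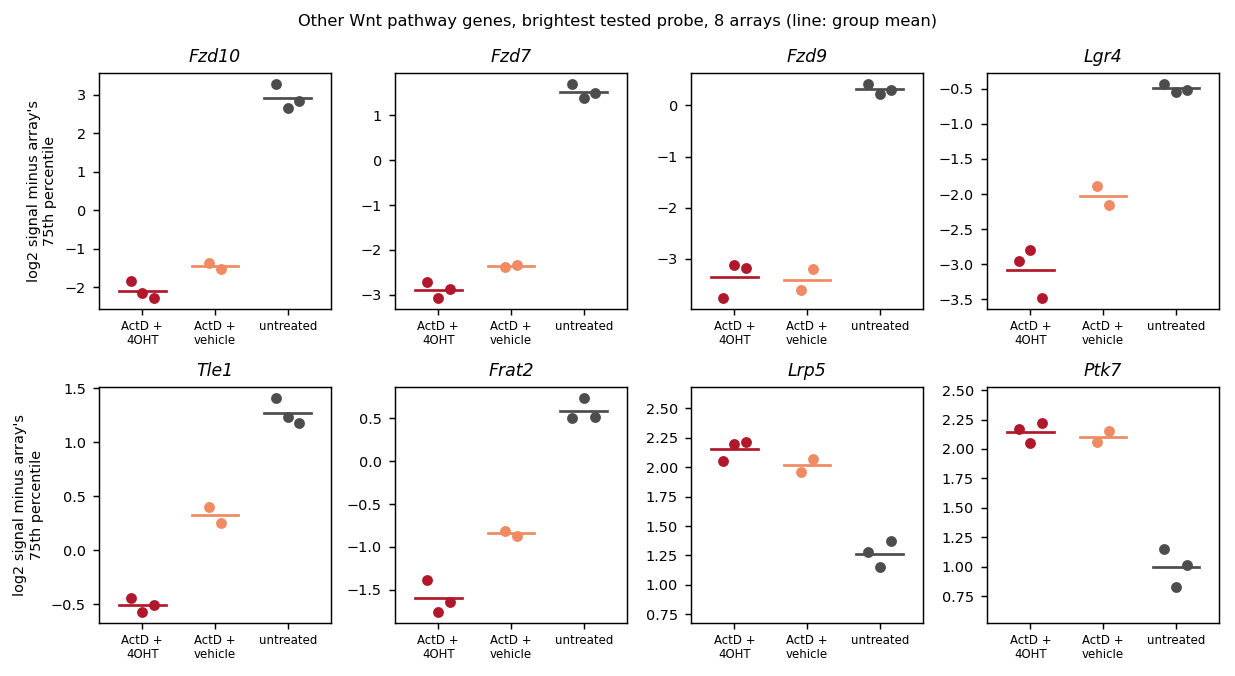
Levels of 8 other pathway genes on each of the 8 arrays, in log2 units relative to the 75th percentile of that array; groups run 4OHT, vehicle, untreated and lines are group means. The Frizzled genes are low in both actinomycin D groups, Lgr4, Tle1 and Frat2 are lower with 4OHT than with vehicle, and Lrp5 and Ptk7 are above untreated on this scale.

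Of the Wnt ligands, 12 of 19 were tested, with 1 higher (Wnt1, 0.76 ± 0.12, limma adjusted p = 0.0017; spike-in scale -0.52) and 3 lower, among them Wnt6 at -1.66 ± 0.18 (adjusted p = 0.00041). The balance of the ligands turned with the setting, with 7 higher and 1 lower under normexp and 0 and 9 on the spike-in scale. Without the filter 1 was higher and 1 lower. Of the R-spondin module, which stabilises or removes Frizzled receptors at the membrane, 5 of 9 were tested. Of these 3 were lower, the R-spondin receptor Lgr4 (-1.53 ± 0.20, limma adjusted p = 0.00079) and the ubiquitin ligases Znrf3 (-1.73 ± 0.21, adjusted p = 0.00059, well above background on 1 of 2 vehicle arrays) and Rnf43. Rnf43 was below background with vehicle, at least 1.23-fold lower, and Lgr6, a receptor of the same family as Lgr4, was higher by 1.13 ± 0.23 (adjusted p = 0.0053; spike-in scale -0.15). With normexp, Znrf3 was 0.00 and Rnf43 0.53.

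Extracellular inhibitors had 2 higher and 4 lower of 13 tested. Among those called lower, Dkk1, Dkk4 and Sostdc1 were below background on both vehicle arrays and passed the filter through another group. The bound was at least 1.34-fold for Dkk4, and for Sostdc1 it was 0.997, which shows no fall. Dkk1, a secreted inhibitor of the Lrp co-receptors and also a target of the pathway, was at least 3.29-fold lower by the bound. Its call belongs to the fitted difference of -3.55 (limma adjusted p = 0.00016), which was 0.09 with normexp. Sfrp2, a secreted binder of Wnt, was higher by 0.42 ± 0.11 (limma adjusted p = 0.018, and -0.86 on the spike-in scale). Kremen1, a receptor for Dkk1, was higher by 0.35 ± 0.12 (limma adjusted p = 0.044, and -0.92 on the spike-in scale). Sfrp2 lost its call under 6 of 22 alternatives, among them leaving out vehicle replicate 1 (adjusted p = 0.063) or 2 (0.071). Kremen1 lost it under 13, with 1 of 8 fits that leave out an array keeping the Kremen1 call (adjusted p up to 0.15) and the replicate block giving it 0.077. A second, dimmer Kremen1 probe was called higher by 1.57 ± 0.26 (limma adjusted p = 0.0021). Cytoplasmic regulators of beta-catenin had 8 higher and 6 lower of 25. Dvl3, which relays the signal from Frizzled, was higher by 1.08 ± 0.13 (limma adjusted p = 6e-04; spike-in scale -0.20), and Tnks, which marks Axin for removal, by 0.83 ± 0.12 (adjusted p = 0.00094; -0.44). Frat2, a binder of Gsk3, was lower by 1.43 ± 0.14 (adjusted p = 0.00029), although a second Frat2 probe differed by 0.14 and was not called. Siah1a, a ubiquitin ligase, was lower by 3.50 ± 0.48 (adjusted p = 9e-04) and Dact1, a binder of Dvl, by 2.46 ± 0.29 (adjusted p = 5e-04), both well above background on 1 of 2 vehicle arrays.

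Of 18 tested nuclear cofactors 9 were called higher and 2 lower, near the 41.5% and 19.2% of all symbols, and the median of 0.44 was near their 0.35. On the spike-in scale 0 were higher and 13 lower, and with quantile normalization 3 were higher and 5 lower. Hdac1, a histone deacetylase of repressor complexes, was higher by 1.17 ± 0.16 (limma adjusted p = 0.00083; -0.11 on the spike-in scale, and 0.20 and not called with quantile normalization). The Groucho co-repressors parted, with Tle2 higher by 0.93 ± 0.11 (adjusted p = 0.00043; spike-in scale -0.34) and Tle4 and Tle1 lower by 1.17 ± 0.14 and 0.95 ± 0.11 (adjusted p = 0.00055 and 0.00049). The other 3 Tle1 probes differed by -1.21, -1.08 and 0.50, the last called higher, and a second Tle2 probe differed by 0.22 and was not called.

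Of 13 tested targets of the pathway 3 were higher and 7 lower, Dkk1, Rnf43 and Znrf3 again among them. In a fit limited to probes well above background on all 8 arrays, 3 of 9 targets were higher and 5 lower. Cdx1, a homeobox factor, was higher by 0.74 ± 0.23 (limma adjusted p = 0.03, and -0.54 on the spike-in scale). The Cdx1 call was lost with median scaling (adjusted p = 0.074), without the filter (0.061) and on leaving out untreated replicate 1 or 2 or vehicle replicate 1 or 2 (up to 0.14). Of 7 genes known to be repressed by Tcf7l1 in stem cells, 3 were higher and 2 lower. Klf2 was lower by 3.71 ± 0.13 (limma adjusted p = 8.5e-06) and Tbx3 by 2.72 ± 0.14 (adjusted p = 3.1e-05), both pluripotency factors, whereas Tdgf1, a co-receptor of Nodal, was higher by 0.74 ± 0.12 (adjusted p = 0.0019; spike-in scale -0.53).

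**Figure D5:**
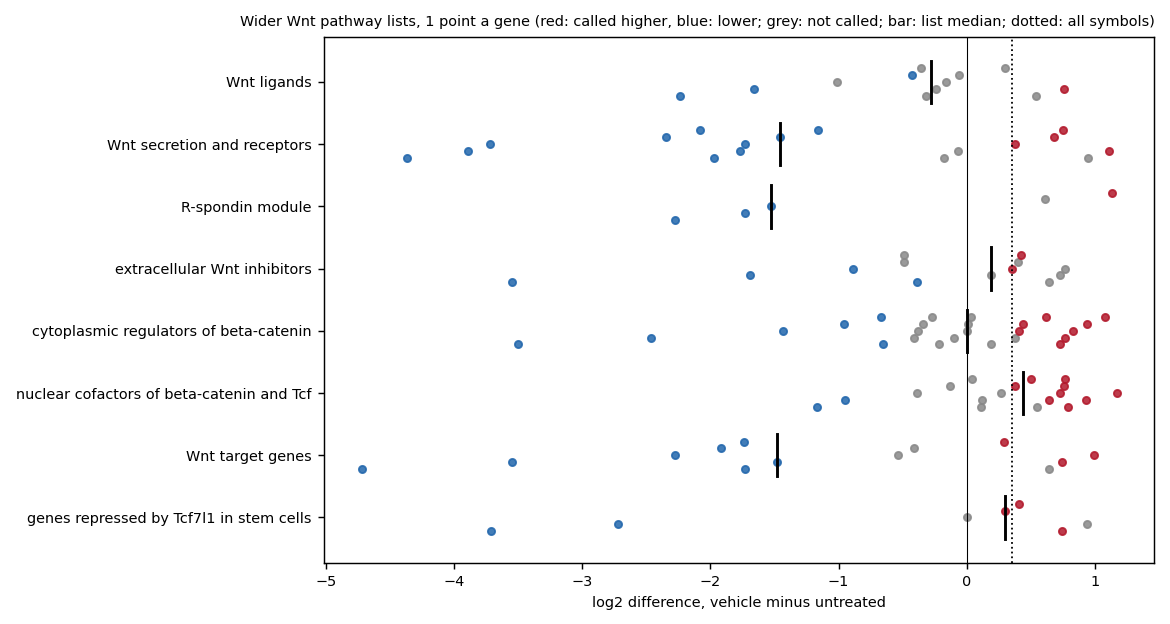
Log2 difference between vehicle and untreated of each tested gene of the wider pathway lists, with list medians as bars and the median of all symbols, 0.35, as a dotted line. The receptor, R-spondin and target lists have medians of -1.46, -1.53 and -1.48, and the nuclear cofactors lie around the dotted line.

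In 4OHT against vehicle, 4 of the 105 list genes (3.81%) were lower and 0 higher, with a median of -0.07 against -0.02 for all symbols. Over all symbols 3.08% were called lower and 1.32% higher, so the share of list genes called lower is near that of the whole array. At an unadjusted p under 0.05 there were 6266 probes over the whole array. Lgr4 read -2.95, -2.80 and -3.48 with 4OHT and -1.89 and -2.16 with vehicle, lower by 1.05 ± 0.20 (limma adjusted p = 0.044). Tle1 read -0.44, -0.57 and -0.51 with 4OHT and 0.40 and 0.25 with vehicle, lower by 0.84 ± 0.11 (limma adjusted p = 0.017), and its other probes differed by -0.87, -0.66 and -0.07, the first 2 called.

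Frat2 was lower by 0.76 ± 0.14 (limma adjusted p = 0.038), with its second probe at -0.14 and not called. Esrrb, an orphan nuclear receptor of the pluripotency network that Tcf7l1 represses, read 6.79, 6.84 and 6.85 with 4OHT and 7.51 and 7.40 with vehicle, lower by 0.63 ± 0.10 (limma adjusted p = 0.027). Leaving out 1 array gave adjusted p of 0.054 to 0.2 for Lgr4, 0.032 to 0.089 for Tle1, 0.04 to 0.17 for Frat2 and 0.04 to 0.13 for Esrrb, so Lgr4 lost its call on leaving out each array in turn and the others on leaving out some. Median scaling, a fit of only these groups and the replicate block each ended all 4 calls, with adjusted p under the block of 0.13 for Lgr4, 0.081 for Tle1, 0.15 for Frat2 and 0.12 for Esrrb. With normexp Lgr4 and Frat2 were each -0.28 and not called. None of the 10 Frizzled genes was called here. Fzd1, Fzd6 and Fzd8 were below background in both groups, so no fold is given for them, and the other 7 differed by -0.64 to 0.14.

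In 4OHT against untreated, 32 of the 105 list genes (30.5%) were higher, 42 (40%) lower and 31 not called, with a median of -0.12 against 0.33 for all symbols. Over all symbols 43.8% were called higher and 21.5% lower. The Frizzled genes again had 9 of 10 called lower, from -5.01 to -0.04, in arrays that share the untreated group with the first comparison. Fzd1, Fzd6 and Fzd8 were again below background outside the untreated group.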

How the data were processed

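RNA of 8 cultures was read on 1 array each. Each deposited file gives spot intensity from Agilent Feature Extraction 11.0.1.1 as that program processed it, after background subtraction, with array design build mm9, per the file headers. The labels name Cy5 as the dye, and the files give the green channel. The deposited value table holds the same linear intensity.

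Spots of a probe were averaged, 3671 control spots were left out, and 466 probes lacked a value on some array, 425 of them on untreated replicate 2. From the deposited intensity, log2 values minus each array's 75th percentile were computed. Kept probes (32991) were well above background in all arrays of 1 or more groups. Accessions were named through a RefSeq gene table of GRCm38.p6 (27656 probes). Groups were compared in 1 limma 3.58.1 fit (R 4.3.3, lmFit and eBayes, 5 residual degrees of freedom), two-sided, Benjamini-Hochberg adjusted over kept probes and called under 0.05; the fit was tested on simulated data. "At least N-fold" is a bound: in the dim group each array contributes its lowest signal well above background, or the probe's own signal if that is higher, and the mean of these is set against the brighter group. That lowest signal is taken over all probes, and some probes not well above background read higher. The bound is therefore not a strict limit and can be too large. The spike-in scale subtracts the mean of 8 of 10 E1A control probes. A gene of the wider lists is represented by its brightest kept probe.

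The named genes are every member probe, up to 3 called rises and 3 called falls of each wider list and comparison without overlap (not all are printed), and the 2 genes nearest in pattern. The members and lists were chosen with earlier results of these data known. Samples were not paired by replicate number in the main fit. Same-numbered deviations correlated at -0.21 to 0.38, with 0.38 and 0.23 in 4OHT against vehicle. The deviations of 2 vehicle arrays mirror each other, so these values cannot exclude a pairing. The number of arrays limits the precision. Alternatives were normexp (offset 50), quantile, median, spike-in and no scaling, the deposited value table, other filters and probe summaries, trended eBayes, fits limited to the groups compared, a replicate block and leaving out arrays.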

Additional observations from a re-analysis of the deposited data

How the results depend on the processing

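Main counts of member probes called were 9, 1 and 9 of 16 for vehicle against untreated, 4OHT against vehicle and 4OHT against untreated. In vehicle against untreated the count was 4 with median scaling and 14 with spike-in scaling, and 6 to 9 on leaving out 1 array. In 4OHT against vehicle it was 0 with median scaling, no scaling, no filter, a fit of only the groups compared, the replicate block, and leaving out both untreated replicate 2 and vehicle replicate 1 (chosen after seeing the data), 2 with trended eBayes, and 0 to 1 on leaving out 1 array. In 4OHT against untreated it was 16 with spike-in scaling and 7 to 10 on leaving out 1 array. With the replicate block the counts were 6, 0 and 8, and Axin1 in 4OHT against vehicle was -0.89 (adjusted p = 0.096). Called probes of the whole array that were higher made up 72.5% in vehicle against untreated, against 85% with normexp, 61% with quantile normalization, 0.243% unscaled and 0.154% with spike-in scaling. In 4OHT against untreated they made up 69.4%, against 84.6%, 62.1%, 0.554% and 0.0974% under the same settings, and in 4OHT against vehicle 27.2%, against 3.16% with spike-in scaling and 19.2% unscaled.

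Directions turned mainly with the scale. In vehicle against untreated, no scaling and spike-in scaling gave -0.37 and -0.55 for Ctnnb1, -0.52 and -0.70 for Apc, -1.03 and -1.20 for Gsk3b (A_51_P514412), -0.71 and -0.89 for Tcf7 (A_52_P244702), -0.62 and -0.80 for Tcf7 (A_55_P2109633), -0.40 and -0.58 for Tcf7l1, and -0.73 and -0.91 for Tcf7l2 (A_55_P2143724). Among the wider lists they gave -0.36 and -0.54 for Cdx1, -0.02 and -0.20 for Dvl3, -0.74 and -0.92 for Kremen1, -0.35 and -0.53 for Lrp5, -0.68 and -0.86 for Sfrp2, -0.35 and -0.53 for Tdgf1, -0.17 and -0.34 for Tle2, -0.26 and -0.44 for Tnks, and -0.34 and -0.52 for Wnt1. Spike-in scaling alone turned Hdac1 (-0.11), Lgr6 (-0.15) and Ptk7 (-0.16). In 4OHT against untreated, no scaling and spike-in scaling gave -0.45 and -0.98 for Ctnnb1, -0.39 and -0.92 for Apc, -0.79 and -1.31 for Tcf7 (A_52_P244702), -0.82 and -1.35 for Tcf7 (A_55_P2109633), -0.85 and -1.38 for Tcf7l1, and -0.51 and -1.03 for Tcf7l2 (A_55_P2143724), whose mean over probes was -0.19. Normexp gave 0.09 for Dkk1 and 0.53 for Rnf43 in vehicle against untreated, 0.36 and 0.29 for Tcf7l2 (A_55_P2260094) in vehicle and in 4OHT against untreated, and 0.25 for Tcf7l2 (A_55_P2030160) in 4OHT against untreated. The cause of these normexp values and of other lost calls was not tested. Probes near background, such as those of Axin2, allow only bounds.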
